A study of Mus musculus with 8 samples.

Results

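The 9 genes described here encode enzymes that build heme and the carrier that brings iron to the last of them. They were chosen by name from a transcript table of 20701 gene symbols, and all 9 were found. Where a gene had several transcripts, only the most counted of them on average was used. All 9 passed the filter on low counts, which left 13769 genes for testing. The RNA came from outflow tract and right ventricle (OFT/RV), dissected at E10.5 from single C57BL/6 mouse embryos. Of these, 4 were wild type controls (CTRL) and 4 were Isl1 hypomorphs (Isl1_hypo), which the study describes as homozygous for an allele carrying a neo cassette. The allele lowers the LIM-homeodomain factor Isl1 in every cell that expresses it, not in the heart alone. The dissected piece is a mixture of muscle, endothelium, mesenchyme and the blood it holds.

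Heme is an iron-containing ring that carries oxygen in hemoglobin and electrons in the respiratory chain. Its synthesis starts in the mitochondrion, where 5-aminolevulinate synthase joins glycine to succinyl-CoA, continues in the cytosol, and ends in the mitochondrion, where ferrochelatase inserts iron. The synthase has an ubiquitous form, Alas1, which heme represses, and an erythroid form, Alas2, which is X-linked, is switched on with the globin genes by GATA factors, and has an iron-responsive element in its mRNA. In the embryo at this stage the circulating primitive red cells are the main site of heme production, while heart muscle makes heme for its cytochromes.

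Sequence upstream of the start site is shown for 3 members, because Alas2 and Cpox are among the members whose counts differed most between libraries and Alas1 is the ubiquitous counterpart of Alas2. The RefSeq promoter table matched 7 of the 9 members, all but Fech and Slc25a37. Each sequence is the 250 bases before the RefSeq transcription start (for Alas1 the more upstream of 2 listed starts), 5′ to 3′ on the strand of the gene, placed on mm9 by its single exact match. Capitals mark the CACCC motif and 4 forms of the GATA motif, each searched on both strands. The forms were AGATAA as the base form, TGATAA where it begins with T, AGATAG where it ends with G, and TGATAG with both of these changes.
Alas2, chrX:146981710-146981959, plus strand: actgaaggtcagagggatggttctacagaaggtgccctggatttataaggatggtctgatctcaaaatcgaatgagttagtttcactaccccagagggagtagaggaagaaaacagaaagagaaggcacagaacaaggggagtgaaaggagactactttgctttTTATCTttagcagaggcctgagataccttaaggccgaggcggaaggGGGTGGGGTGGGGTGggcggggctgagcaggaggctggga
Cpox, chr16:58670071-58670320, plus strand: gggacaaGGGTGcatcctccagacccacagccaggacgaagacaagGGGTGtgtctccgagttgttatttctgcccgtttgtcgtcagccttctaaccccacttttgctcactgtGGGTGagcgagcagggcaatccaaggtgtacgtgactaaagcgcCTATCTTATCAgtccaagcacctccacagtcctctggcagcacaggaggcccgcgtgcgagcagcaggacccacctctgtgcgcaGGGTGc
Alas1, chr9:106150286-106150535, minus strand: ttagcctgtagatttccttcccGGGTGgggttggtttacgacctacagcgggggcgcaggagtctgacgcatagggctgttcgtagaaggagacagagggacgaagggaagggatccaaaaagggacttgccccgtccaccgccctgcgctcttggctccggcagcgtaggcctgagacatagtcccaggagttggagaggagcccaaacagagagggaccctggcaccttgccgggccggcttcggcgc

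The Alas2 window holds 1 GATA motif, which begins 86 bases before the start, and 3 CACCC motifs that follow each other from 40 bases before it. The Cpox window holds 2 GATA motifs, at 91 and 86 bases before the start and sharing a base, and 4 CACCC motifs. The Alas1 window holds 0 GATA motifs and 1 CACCC motif. Among the other matched members, the windows of Alad, Urod and Ppox had 0 GATA motifs and that of the second listed start of Uros had 2. Over all 32851 windows of this length, 26.5% hold a GATA motif and 52% a CACCC motif. The gene bounds given further on are from GENCODE, whose starts for Alas2 and Alas1 lie inside these windows, so part of each window, including the 3 CACCC motifs of Alas2, falls within the GENCODE gene. These counts describe letters and not bound sites.

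The libraries held 29748458 to 46678973 counts in CTRL and 18422245 to 33050298 in Isl1_hypo, and the kept member transcripts had between 315 and 10361 counts in any library. Isl1 itself had a mean of 47.2 ± 13.3 CPM (counts scaled to the TMM-adjusted library size) in CTRL and 9.67 ± 2.83 CPM in Isl1_hypo (SD, n = 4). Its adjusted p was 0.0077 (edgeR), so the labels and the targeted gene go together. All 8 cardiomyocyte markers and all 6 outflow tract markers listed for the check were tested. The cardiomyocyte sum was 38838 to 47761 CPM in CTRL and 42808 to 51045 CPM in Isl1_hypo, with 0 of 8 genes called and 2 lower at an unadjusted p under 0.05 (edgeR, 6.17% of all genes). These were the myosin genes Myh7 (−0.49 on the log2 scale, SE 0.12, without overlap) and Myh6 (−0.31, SE 0.14). The outflow sum, Isl1 included, was 900 to 1027 CPM in CTRL and 501 to 709 CPM in Isl1_hypo. Of these 6 genes, 5 were lower without overlap (4.44% of all genes) and 3 were called lower (edgeR, 0.123% of all genes). Isl1, the targeted gene, is in both counts. The part of outflow content in the members' values was not tested. Isl1_hypo replicate 3 stood apart from the other libraries, with a median rank correlation of 0.97 with its own group against 0.983 to 0.989 elsewhere. Fold changes of members that rest on it are given with and without it. Globin genes, a measure of red cells, took 0.212% to 1.19% of counts in CTRL and 1.18% to 2.44% in Isl1_hypo. In bulk tissue, fewer or more cells of a type cannot be told apart from less or more RNA per cell.

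To see how the pathway is laid out in this tissue, levels were compared between genes per transcript length, as RPKM (reads scaled to transcript length and library size, computed by the authors). In CTRL the order ran from Urod at 44.4 ± 3.64 RPKM (SD, n = 4), which decarboxylates uroporphyrinogen, through Alad at 26.1 ± 6.75, Fech at 23.4 ± 0.411, Alas1 at 19.4 ± 2.01 and Uros at 10.9 ± 0.952. Alas2 followed at 7.07 ± 5.94, then Ppox at 5.18 ± 0.576, Cpox at 2.99 ± 0.627 and Slc25a37 at 2.82 ± 0.732. The place of Alas2 above Ppox rests on CTRL replicate 4, where Alas2 stood at 15.8 RPKM, against 3.25 to 5.79 RPKM in the other controls. The ranges of neighbours in this order were apart for Urod over Alad, Fech over Alas1, Alas1 over Uros and Ppox over Cpox. They overlapped for Alad and Fech, Uros and Alas2, Alas2 and Ppox, and Cpox and Slc25a37.

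In Isl1_hypo the 3 most abundant members per length stood in that same order, with Urod at 52.8 ± 6.83 RPKM, Alad at 37.2 ± 4.68 and Fech at 30.4 ± 5.54. Alas2 stood next at 20.1 ± 6.51, beside Alas1 at 19.7 ± 3.27, and exceeded it in 2 of 4 libraries. Uros followed at 13.4 ± 4.01, then Slc25a37 at 7.18 ± 2.68, Cpox at 6.75 ± 3.9 and Ppox at 5.06 ± 0.531. Cpox stood at 12.4 RPKM in Isl1_hypo replicate 3 and at 3.74 to 5.94 RPKM in the other Isl1_hypo libraries. The places of Cpox above Ppox and of Alas2 above Alas1 rest on replicate 3. Only the neighbours Urod and Alad, and Uros and Slc25a37, had ranges that did not overlap. With all libraries included, the 3 members at the low end in CTRL and Isl1_hypo encode the iron carrier and both oxidases.

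**Figure D1:**
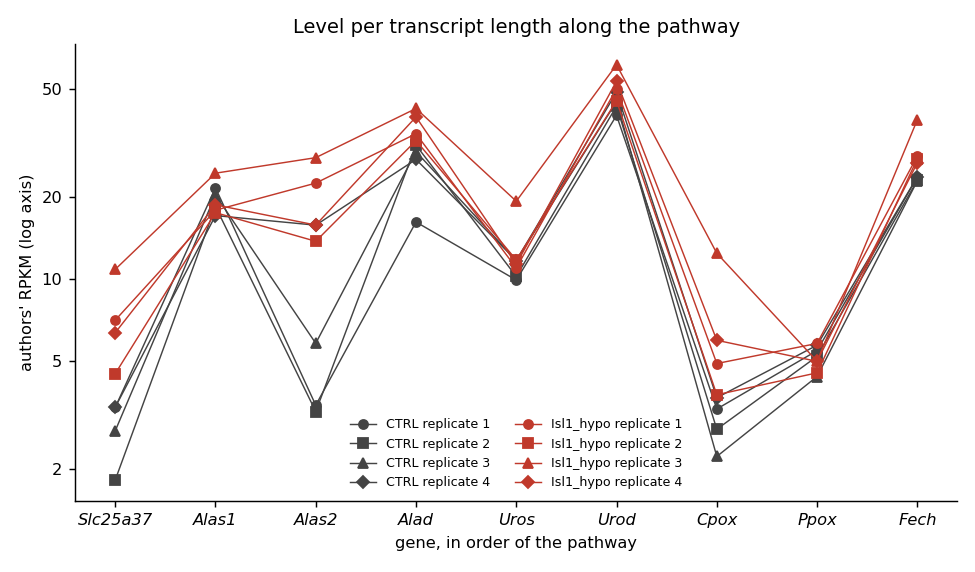
RPKM (log axis) of the iron carrier and then the member enzymes in pathway order for 4 CTRL (grey) and 4 Isl1_hypo (red) libraries, with a line per library and a marker shape per replicate number. The lines lie together at Alas1 and Ppox and spread at Alas2, from 3.25 RPKM in CTRL replicate 2 to 28 RPKM in Isl1_hypo replicate 3.

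The comparison of the groups asked whether heme synthesis transcripts differ in the OFT/RV when Isl1 is reduced. The estimate was above 0 for 8 of the 9 members, with a median log2 fold change of 0.41, against 0.0057 over all 13769 genes. Without Isl1_hypo replicate 3, 7 of 9 were above 0 and the median was 0.25. By the edgeR quasi-likelihood test 0 of 9 members had an adjusted p under 0.05, where 0.145% of all genes were called higher and 0.123% lower. DESeq2 called 2 members higher (Slc25a37 and Cpox), where it called 1.08% of all genes higher. Limma-voom with sample weights (weighted limma-voom from here on) called 1 (Slc25a37), where it called 0.516%. At an unadjusted p under 0.05, edgeR found 6 members higher, where 5.69% of all genes were higher, and 0 lower (background 6.17%). Without Isl1_hypo replicate 3 the count was 5, Urod being lost. DESeq2 found 6 members higher at that limit (6.23% of all genes) and weighted limma-voom 5 (6.71%). In 4 members (Slc25a37, Cpox, Alad and Fech) every Isl1_hypo library lay above every CTRL library, a pattern shown by 4.06% of all genes, and 0 members showed the opposite pattern (4.44% of all genes).

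The erythroid synthase Alas2 (chromosome X, 146981918 to 147005181, mm9) had 10.8, 10.4, 18.8 and 50.8 CPM in CTRL (replicates in number order, here and in the rest). In Isl1_hypo it had 72.7, 44.7, 93.8 and 51.4 CPM. CTRL replicate 4 lay among the Isl1_hypo embryos, above replicate 2 and just under replicate 4, so the groups overlapped in spite of a 2.88-fold difference. The means were 22.7 ± 19.1 and 65.7 ± 22.2 CPM (SD, n = 4), giving a log2 fold change of 1.53 (SE 0.46) that missed the threshold at an adjusted p of 0.236 (edgeR). Without CTRL replicate 4 the log2 fold change was 2.30 (SE 0.31) and passed the test, with an adjusted p of 0.0221 (edgeR). Without Isl1_hypo replicate 3 it was 1.30 (SE 0.47, adjusted p 0.338).

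The ubiquitous synthase Alas1 (chromosome 9, 106135786 to 106150457) was nearly level across the embryos. It stood at 93.4, 81.4, 90.8 and 75.4 CPM in CTRL and at 79, 78.1, 112 and 83.4 CPM in Isl1_hypo. The groups overlapped throughout, with Isl1_hypo replicate 3 the highest library. The log2 fold change was 0.050 (SE 0.14, adjusted p 0.915, edgeR) and −0.088 (SE 0.098) without that library.

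Slc25a37 (chromosome 14, 69859908 to 69903160) encodes mitoferrin 1, the carrier that takes iron into mitochondria of developing red cells. It stood at 22.4, 12.3, 18.9 and 22.9 CPM in CTRL and at 48, 30.7, 76.8 and 43.6 CPM in Isl1_hypo. Every Isl1_hypo embryo exceeded every CTRL embryo, the lowest of them being replicate 2. The log2 fold change of 1.38 (SE 0.27) had the smallest p of the 9 members and ranked 65th of all genes by p, yet its adjusted p of 0.0662 missed the limit (edgeR). The value was 1.09 (SE 0.22, adjusted p 0.0734) without Isl1_hypo replicate 3.

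Among the enzymes after the synthase, Cpox (chromosome 16, 58670321 to 58680504) differed most. It encodes coproporphyrinogen oxidase, which acts in the mitochondrial intermembrane space. It stood at 16.9, 14.5, 11.6 and 19 CPM in CTRL and at 25.4, 19.6, 67.3 and 31.2 CPM in Isl1_hypo. The groups did not overlap, but Isl1_hypo replicate 2 lay close to the highest CTRL embryo and replicate 3 lay far above all others. The log2 fold change was 1.21 (SE 0.33, adjusted p 0.199, edgeR) and 0.71 (SE 0.20, adjusted p 0.201) without replicate 3.

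**Figure D2:**
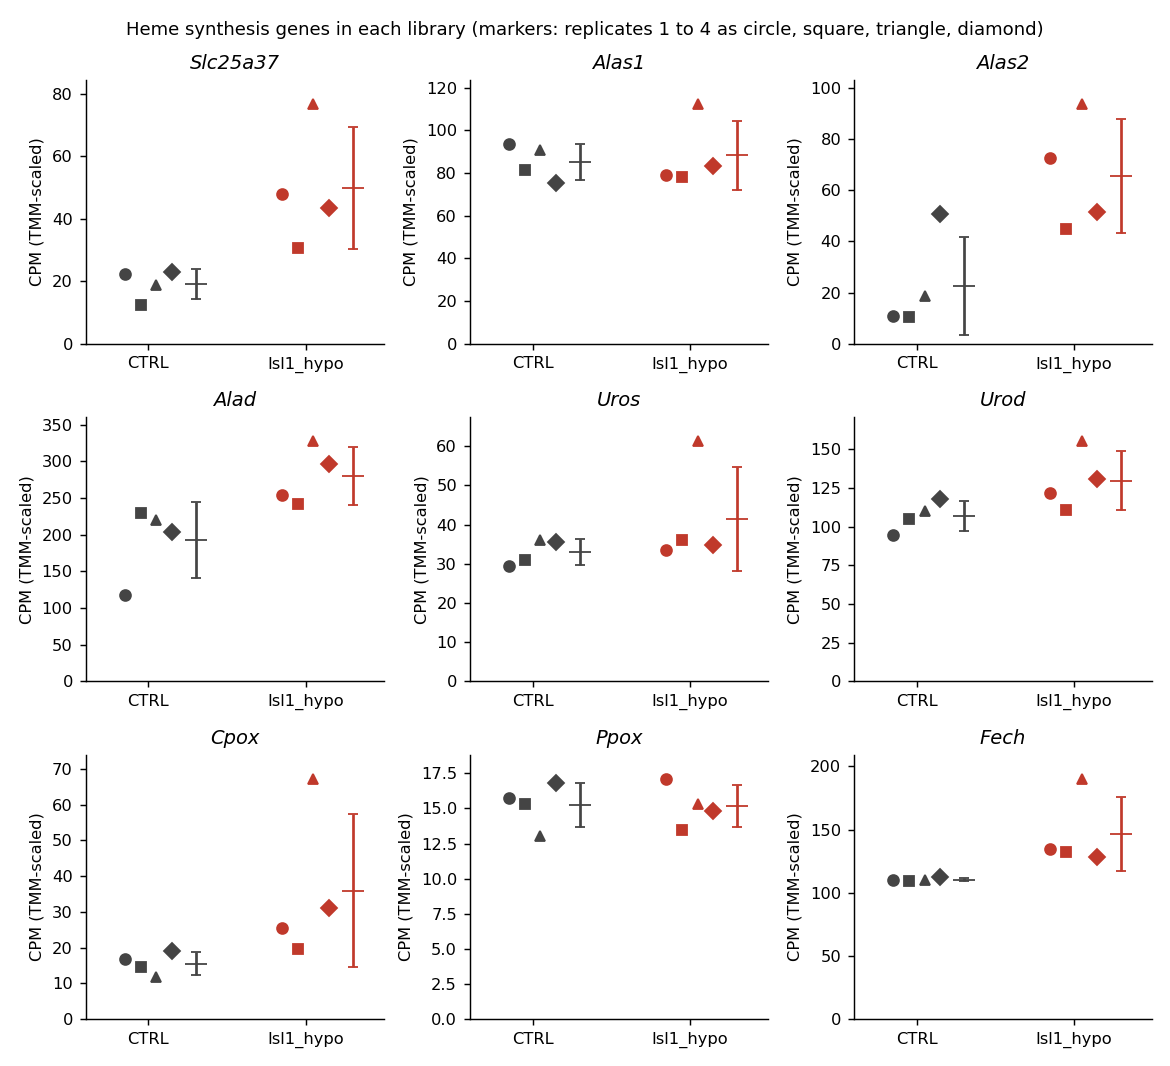
CPM of each member in each library (points; marker shape gives the replicate number) with the mean and SD of 4 embryos per group (bars) for CTRL (grey) and Isl1_hypo (red); every axis starts at 0. Alas2 in CTRL replicate 4, at 50.8 CPM, lies among the Isl1_hypo libraries, whereas Slc25a37, Cpox, Alad and Fech do not overlap between groups.

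Alad (chromosome 4, 62170203 to 62180952) encodes the dehydratase that joins aminolevulinate into porphobilinogen. It stood at 117, 230, 221 and 204 CPM in CTRL and at 254, 242, 328 and 296 CPM in Isl1_hypo. CTRL replicate 1 lay well under all others, and the groups did not overlap. The log2 fold change was 0.54 (SE 0.19, adjusted p 0.304, edgeR), and 0.35 without CTRL replicate 1.

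Fech encodes ferrochelatase, the terminal enzyme. It stood at 110, 109, 110 and 113 CPM in CTRL, the tightest group of any member, and at 134, 133, 190 and 128 CPM in Isl1_hypo. The Isl1_hypo embryos were all above CTRL, with replicate 3 apart from the other 3. The log2 fold change was 0.41 (SE 0.13, adjusted p 0.274, edgeR) and 0.25 (SE 0.076, adjusted p 0.238) without replicate 3.

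Urod (chromosome 4, 116662570 to 116667018) stood at 94.9, 105, 110.3 and 118 CPM in CTRL and at 122, 111, 155 and 131 CPM in Isl1_hypo. Isl1_hypo replicate 2 lay within the CTRL range, and the log2 fold change was 0.28 (SE 0.12, adjusted p 0.399, edgeR). Without Isl1_hypo replicate 3 it was 0.18 (SE 0.10, adjusted p 0.567). Uros (chromosome 7, 140877926 to 140901755), the synthase that closes the uroporphyrinogen ring, stood at 29.5, 31, 36 and 35.6 CPM in CTRL and at 33.4, 36.1, 61.3 and 34.8 CPM in Isl1_hypo. The difference of 0.33 on the log2 scale (SE 0.19, adjusted p 0.533, edgeR) was 0.075 (SE 0.12) without Isl1_hypo replicate 3, which lay far above the other 7 libraries.

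Ppox (chromosome 1, 173206121 to 173211317) encodes protoporphyrinogen oxidase, which acts just before ferrochelatase. Over all 8 libraries it varied least of the 9 members, though not among the libraries other than Isl1_hypo replicate 3. It stood at 15.7, 15.3, 13.1 and 16.8 CPM in CTRL and at 17.1, 13.5, 15.3 and 14.8 CPM in Isl1_hypo. The groups covered nearly the same range, including Isl1_hypo replicate 3. The log2 fold change was −0.0068 (SE 0.15, adjusted p 0.991, edgeR). Cpox and Ppox catalyse consecutive steps, yet over the 8 libraries the highest Cpox level was 5.78-fold the lowest and that of Ppox 1.31-fold. The highest Cpox level was that of Isl1_hypo replicate 3, at 67.3 CPM, and the next highest was 31.2 CPM.

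The erythroid synthase was then set against the ubiquitous one within each library, where differences in depth cancel. There were 116, 128, 208 and 674 Alas2 counts per 1000 Alas1 counts in CTRL. The Isl1_hypo embryos had 920, 573, 834 and 616. CTRL replicate 4 again lay inside the Isl1_hypo range. The mean log2 ratio differed by 1.76 (SE 0.61, n = 4 per group), which an exact 2-sided permutation test did not separate from the spread between embryos (p = 0.0857). Without CTRL replicate 4 the difference was 2.31 (SE 0.31, exact permutation p = 0.0286, the smallest possible). Per transcript length, Alas2 made up 13.6%, 14.9%, 22.1% and 48% of the summed RPKM of both synthases in CTRL, and 55.7%, 43.9%, 53.3% and 45.7% in Isl1_hypo.

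The same comparison was made between Alas2 and each of the other members, 8 tests in all. The difference between groups in the log2 ratio was above 0 for all 8. It was largest against Ppox, at 1.80 (SE 0.55, exact permutation p = 0.0286, 0.114 adjusted over the 8 tests), and none of the 8 passed after adjustment. With 0.0286 the smallest possible p, a ratio without overlap, as against Ppox, cannot pass this adjustment alone. The lack of passes therefore says little about any single ratio. It was smallest against Slc25a37 (0.45, SE 0.46, exact permutation p = 0.457) and Cpox (0.73, SE 0.54, exact permutation p = 0.257). Without CTRL replicate 1 these were 0.12 and 0.43, and without CTRL replicate 4 they were 0.85 and 1.12. Uros, Urod, Fech and Alad lay between, at 1.51, 1.52, 1.41 and 1.22. Without CTRL replicate 4, 7 of the 8 differences had an adjusted exact permutation p under 0.05, the exception being Cpox. All 7 had the same adjusted value, 0.0327, because none of them then overlapped between groups. In each ratio CTRL replicate 4 was the highest control, so these passes follow from which library was removed.

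Alas2 was next expressed per globin count, since red cells make both. There were 5.35, 3.88, 4.03 and 4.27 Alas2 counts per 1000 globin counts in CTRL. The Isl1_hypo embryos had 3.91, 3.77, 3.68 and 3.33. The 8 libraries thus lay within a 1.6-fold range, while the Alas2 level itself spanned 8.99-fold and the globin share 11.5-fold. The mean log2 ratio differed by −0.25 in Isl1_hypo (SE 0.11, exact permutation p = 0.0571, 0.0857 adjusted over 9 members), and by −0.15 (SE 0.064) without CTRL replicate 1. CTRL replicate 4, with 1.19% globin, and Isl1_hypo replicate 2, with 1.18%, had 50.8 and 44.7 CPM of Alas2.

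The other members did not keep a like proportion to globin. Alas1 lay within 6.34 to 46.2 counts per 1000 globin counts in CTRL and 4.25 to 6.58 in Isl1_hypo, a difference in the mean log2 ratio of −2.0 (SE 0.63, exact permutation p = 0.0571). Ppox differed by −2.05, Urod by −1.77, Uros by −1.76, Fech by −1.66, Alad by −1.47, Cpox by −0.97 and Slc25a37 by −0.70. Without CTRL replicate 1, Cpox differed by −0.58 and Slc25a37 by −0.26, and without CTRL replicate 4 by −1.37 and −1.10. Of the 9 ratios, 0 had an adjusted exact permutation p under 0.05 and 2 (Urod and Ppox) had an unadjusted p under it. These 2 were at the smallest possible p and could not pass the adjustment by themselves. Without CTRL replicate 4, 7 of the 9 passed after adjustment, the exceptions being Alas2 and Cpox. In these 7 ratios CTRL replicate 4 was the lowest control, so the passes follow from which library was removed. Slc25a37 stood at 2.58, 2.59, 3.01 and 2.82 per 1000 globin counts in Isl1_hypo and ranged from 1.93 to 11.1 in CTRL, a wider range in the controls than in the hypomorphs. Of the globin genes, Hba-a1 and Hba-a2 carried identical counts in 8 of 8 libraries and are counted as listed.

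**Figure D3:**
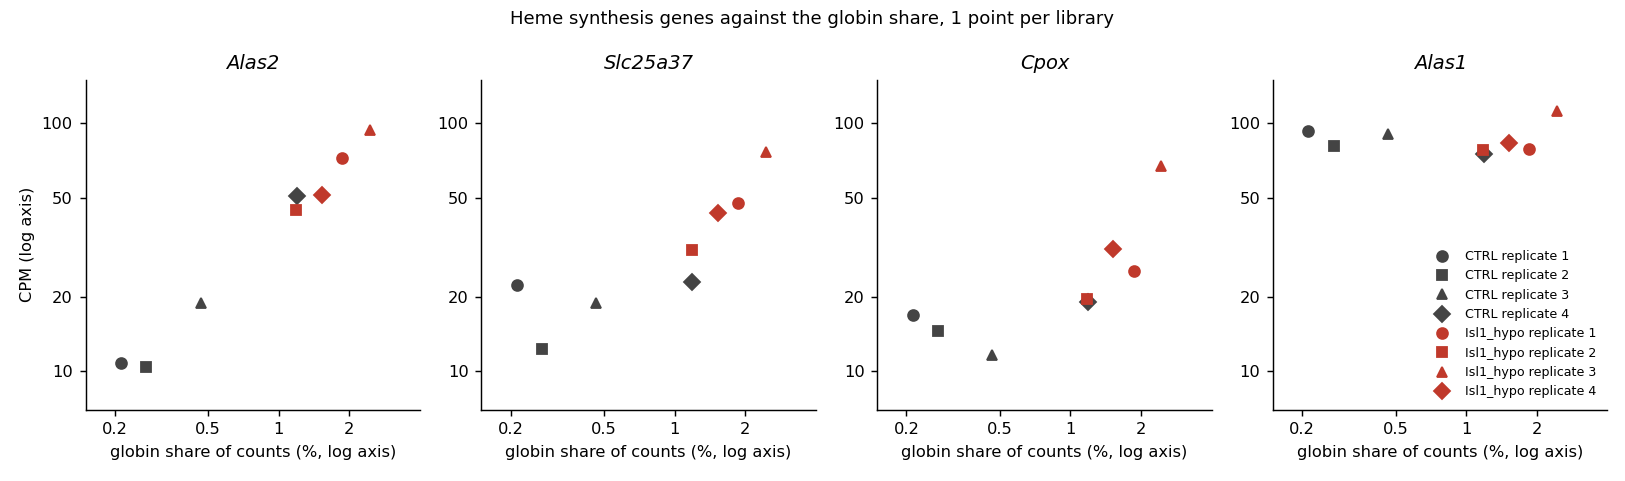
CPM of 4 members (vertical, log axis) against the globin share of counts in percent (horizontal, log axis), with a point per library for CTRL (grey) and Isl1_hypo (red). Alas2 follows the globin share from 10.4 to 93.8 CPM, and Alas1 stays between 75.4 and 112 CPM over the same range.

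Over the 8 libraries the members fell in order of spread, given as highest over lowest CPM. Alas2 spanned 8.99-fold, Slc25a37 6.23-fold and Cpox 5.78-fold, while Alad spanned 2.79-fold, Uros 2.08-fold, Fech 1.74-fold, Urod 1.63-fold, Alas1 1.49-fold and Ppox 1.31-fold. Every member but Ppox was highest in Isl1_hypo replicate 3, and the order depends on that library. Without it Uros lay within 29.5 to 36.1 CPM, a narrower relative range than that of Ppox. The tested genes whose log2 CPM was most like that of Alas2 over the 8 libraries were Slc4a1, the red cell anion exchanger (Pearson r = 0.99), the embryonic globin genes Hbb-y (0.99), Hbb-bh1 (0.99) and Hba-x (0.98), and the erythroid repressor Gfi1b (0.98). Among the members, Slc25a37 (0.86) and Urod (0.85) were most like Alas2, and Alas1 (0.07) and Ppox (0.24) least. These values describe 8 libraries of 2 groups that differ in depth and in globin share, and were not tested.

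Red cell markers moved with Alas2. The 10 red cell membrane genes summed to 61.6, 67.5, 70 and 138 CPM in CTRL and to 227, 171, 314 and 178 CPM in Isl1_hypo. All 10 had estimates above 0, with 9 higher at an unadjusted p under 0.05 (5.69% of all genes) and 1 (Epb42) called higher after adjustment (edgeR, 0.145% of all genes). All 9 globin genes had estimates above 0, and 7 were higher at an unadjusted p under 0.05, against the same 5.69%, with 0 called after adjustment (edgeR). Adding the mean log2 level of the globin genes to the model brought the log2 fold change of Alas2 to 0.12 (SE 0.25), at an adjusted p of 0.9996 (edgeR), Slc25a37 0.78 (SE 0.42) and Cpox 0.57 (SE 0.55). That covariate differs between the groups and uses a degree of freedom, and with it 0 members had an unadjusted p under 0.05. The part of red cell content in the differences was not tested further. The 8 liver and yolk sac markers summed to 2.82 to 4.4 CPM in CTRL and 5.47 to 7.39 CPM in Isl1_hypo, without overlap. Only Amn and Ttr of these were tested, and Amn, which encodes a membrane protein of absorptive epithelia, gave 0.77 on the log2 scale (SE 0.29, adjusted p 0.322, edgeR) without overlap. Alb was at 1 count in a single library, and Serpina1a and Fgb were at 0 in all 8. Apob had 39 and 35 counts in Isl1_hypo replicates 1 and 2 and at most 17 in any other library. Afp had 12 counts in CTRL replicate 4 and at most 4 elsewhere, and Apoa1 had at most 18 in any library. The part of these tissues in the members' values was not tested. Of the listed macrophage markers 5 were in the table and 4 tested, with summed levels of 9.53 to 21.6 CPM in CTRL and 8.91 to 17.7 CPM in Isl1_hypo. The 6 endothelial markers summed to 644 to 751 CPM in CTRL and 492 to 631 CPM in Isl1_hypo, without overlap. Of these, 5 were below 0, 0 were called and 2 were lower without overlap and at an unadjusted p under 0.05 (edgeR, 6.17% of all genes), Pecam1 at −0.58 and Cdh5 at −0.54 on the log2 scale. The part of endothelial content in the members' values was not tested.

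Because Alas2 is X-linked, the sex of the embryos was looked at through 4 Y-linked genes. They summed to 204 to 277 CPM in CTRL replicate 3 and Isl1_hypo replicates 1, 3 and 4, and to at most 0.337 CPM in the other libraries. Adding the Y-linked level to the model gave Alas2 1.43 on the log2 scale (SE 0.62, adjusted p 0.757, edgeR) and Slc25a37 1.11 (SE 0.34, adjusted p 0.54). These were then the 2 members with an unadjusted p under 0.05, where 6 had one without it.

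**Figure D4:**
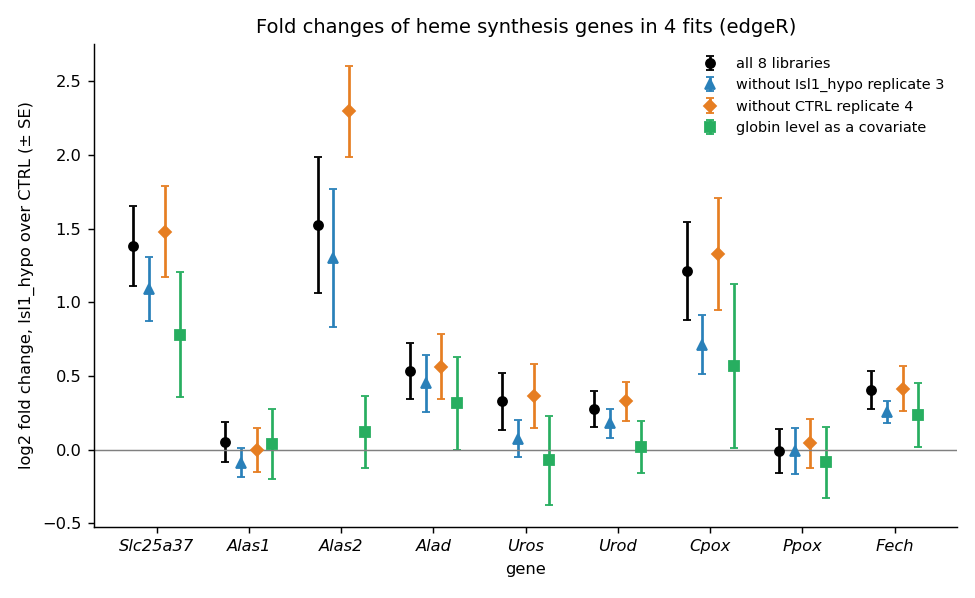
Log2 fold change of Isl1_hypo over CTRL with its standard error for each member in 4 edgeR fits: all 8 libraries (black), without Isl1_hypo replicate 3 (blue), without CTRL replicate 4 (orange) and with the globin level as a covariate (green). Alas2 moves from 1.53 with all libraries to 2.30 without CTRL replicate 4 and 0.12 with the covariate, and Alas1 stays between −0.088 and 0.050 in all 4.

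The wider pathway was read from 5 lists, against a background of 7007 of 13769 genes above 0 and 5.69% higher at an unadjusted p under 0.05, so that 1 gene of 12 is near the background. Of 12 genes for mitochondrial heme transport and cofactors, 11 had estimates above 0 (median 0.13), 0 were called by edgeR after adjustment and 1 had an unadjusted p under 0.05. That gene was Fam210b, which takes part in iron delivery to ferrochelatase in red cells. It stood at 26.7 CPM in CTRL and 37 CPM in Isl1_hypo without overlap (log2 fold change 0.47, SE 0.13, adjusted p 0.201, edgeR). Tmem14c, the gene below 0, had the estimate of largest size in this list, at −0.58 (SE 0.49, adjusted p 0.671, edgeR). Its level was 11.5 CPM in Isl1_hypo replicate 4 and 87.1 to 158 CPM in the other libraries. Of 12 genes for iron-sulfur cluster assembly, on which ferrochelatase depends, 9 were above 0 (median 0.12), 0 were called and 1, Isca1, had an unadjusted p under 0.05. Of 9 iron supply genes 8 were above 0 (median 0.20), 0 were called, and the ferritin gene Fth1 had an unadjusted p under 0.05 (log2 fold change 0.34, SE 0.15). The transferrin receptor gene Tfrc went the other way at −0.24 (SE 0.12, adjusted p 0.45, edgeR).

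Of 9 listed genes for heme export and breakdown 7 were in the table, and 5 of these were above 0 (median 0.31). By edgeR 0 were called and 2 had an unadjusted p under 0.05: the biliverdin reductase gene Blvrb (log2 fold change 0.54, SE 0.19) and the porphyrin exporter gene Abcg2 (0.31, SE 0.13). The heme oxygenase genes, whose products open the heme ring, gave −0.19 (SE 0.25) for Hmox1 and −0.052 (SE 0.089) for Hmox2.

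Of 10 regulators of heme synthesis and red cell genes, 0 were called by edgeR after adjustment, 5 were higher at an unadjusted p under 0.05 and 1 lower. The erythroid activator Klf1, which binds CACCC motifs, stood at 7.9 CPM in CTRL and 21.1 CPM in Isl1_hypo without overlap (log2 fold change 1.42, SE 0.32, adjusted p 0.106, edgeR). Gata1, which binds GATA motifs, stood at 0.51, 2.46, 3.23 and 6.95 CPM in CTRL and 13, 5.92, 14.7 and 6.37 CPM in Isl1_hypo, with CTRL replicate 4 again inside the Isl1_hypo range (log2 fold change 1.59, SE 0.58, adjusted p 0.312, edgeR). Of the regulators that act in many tissues, the heme-regulated kinase gene Eif2ak1 gave 0.026 (SE 0.11), Nrf1 −0.0033 (SE 0.14), the coactivator gene Ppargc1a 0.24 (SE 0.13) and the heme sensor gene Bach1 −0.25 (SE 0.30), none of which passed the test.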

How the data were processed

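Polyadenylated RNA of 8 single embryos (4 CTRL, 4 Isl1_hypo) was sequenced on BGISEQ-500. The authors mapped reads to mm9 with STAR (intron length 20 to 500000) and used HOMER to count exon reads per RefSeq transcript on both strands. These deposited counts are raw. Transcripts of a gene share reads, as do near-identical globin genes. The authors' RPKM came from edgeR applied to those counts, and served here only to compare levels between genes. Columns of the authors' own DESeq2 comparison (mean, fold change, error, statistic, p-values) were not used.

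Here 31507 transcripts were reduced to 1 per symbol, filtered with filterByExpr, scaled by TMM and tested with the quasi-likelihood test of edgeR (version 4.0.16, R 4.3.3) without covariates, with Benjamini-Hochberg adjustment over 13769 genes. The biological coefficient of variation was 26.4%. Standard errors are the log2 fold change divided by the square root of F. Ratios of counts had 0.5 added and were compared by exact 2-sided permutation over 70 assignments, for which the smallest p is 0.0286. Likeness used log2 CPM with a prior count of 2. DESeq2 1.42.0 and limma 3.58.1 were alternatives. The limma fit was voom with a weight per library, so the test and the library weights changed together. Scripts were tested on simulated data. The members, lists and tests were chosen with earlier results of these data known, and the Y-linked covariate and the reduced globin sum were added after seeing the data. The named genes are the 9 members, Isl1, up to 4 genes of a list by smallest p, and the 5 genes most like Alas2 or Alas1. Hmox1, Hmox2, Eif2ak1, Nrf1, Bach1, Ppargc1a, Gata1, Tmem14c, Alb, Apob, Afp, Apoa1, Serpina1a and Fgb were named outside that rule after their values were seen. Positions are from the GENCODE annotation of mm9.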

Additional observations from a re-analysis of the deposited data

Results flagged for a closer look

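A single distant library was looked for in 56 sets of 4 embryos and found in 2, where chance gives about 2.8. Both were Isl1_hypo replicate 3. Uros stood there at 5.94 log2 CPM, against 5.06 to 5.18 in the other Isl1_hypo embryos. Fech stood at 7.57 log2 CPM, against 7.002 to 7.07. What sets this library apart was not tested.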

How the results depend on the processing

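With 4 embryos per group and a biological coefficient of variation of 26.4%, small differences of the members were not detectable. No cause was tested for any of the changes below. The count of 37 genes past an adjusted p of 0.05 was 319 with DESeq2, 134 with weighted limma-voom and 3 with the Y-linked covariate. It was 0 with the globin covariate or the replicate block. With a library left out it was 4 to 48 (8, 5 and 4 without CTRL replicates 1, 2 and 3, and 12 and 11 without Isl1_hypo replicates 2 and 4). The count of 0 members called was 2 with DESeq2, 1 with weighted limma-voom and 0 to 1 with a library left out. The Alas2 to Alas1 difference ranged from 1.46 to 2.31 with a library left out, and the number of Alas2 ratios past the threshold from 0 to 7, as did that of globin ratios. Leaving out CTRL replicate 4 gave each of these highest values for the members. Some estimates changed sign. Alas1 (0.050) was −0.050 with weighted limma-voom and −0.053 with the Y-linked covariate. Ppox was 0.021 with the Y-linked covariate, and Uros (0.33) was −0.073 with the globin covariate. With a library left out, Alas1 ranged from −0.088 to 0.10 and Ppox from −0.077 to 0.045. Replicate numbers are not said to pair the embryos. Deviations of same-numbered libraries correlated at −0.021 to 0.022, which shows no pairing but cannot exclude it. With the replicate block 0 members were called (6 at an unadjusted p under 0.05), Alas2 had a log2 fold change of 1.83, and an exact sign-flip test of the Alas2 to Alas1 ratio gave p = 0.25, where the smallest possible is 0.125. Keeping 1 gene of each near-identical globin pair left the Alas2 to globin difference at −0.24.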

Other observations

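The genes whose pattern was most like Alas1 over the 8 libraries were of another kind than those like Alas2. They were Pmpca, a subunit of the protease that trims proteins entering the mitochondrion (Pearson r = 0.98), the RNA-binding protein gene Hnrnpm (0.97), Klf15 (0.96), Gtf3c3 (0.96) and the linker histone gene H1f0 (0.96). Each of these 5 had a log2 fold change between 0.04 and 0.24 in Isl1_hypo. The values describe 8 libraries and were not tested.

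Among the regulators, Zfpm1, which encodes the GATA cofactor FOG1, went against the erythroid genes of its list. It stood at 12.2 CPM in CTRL and 7.58 CPM in Isl1_hypo without overlap, a log2 difference of −0.69 (SE 0.20), and its adjusted p was 0.224 (edgeR). Gfi1b, by contrast, stood at 1.08 CPM in CTRL and 4.85 CPM in Isl1_hypo without overlap (log2 fold change 2.15, SE 0.56, adjusted p 0.178, edgeR).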
